A study of Homo sapiens with 12 samples.

Results

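A549 is a cell line from a human lung adenocarcinoma, labelled as alveolar basal epithelial, and the miRNA repertoire of these cells before TGF-β is described here. Its members are the 2 libraries of the 0 h group, out of 6 libraries in the series, and they were chosen by their time label alone. Each library was sequenced in 2 runs, so the group holds 4 of the 12 runs, and the deposited table has a single count column for each library, which was read as holding both of its runs. The labels give these libraries the same EMT protocol as the treated ones, with a time of 0 h. The methods describe a day in serum-free medium before TGF-β1 is added, since FBS itself holds TGF-β1, and they do not say separately whether the 0 h cells were harvested after that day. Nothing in the labels says whether replicates 1 and 2 came from separate cultures, so the spread between them may be technical. All values below are counts of reads on mature miRNAs, their percentage of the library's total, or CPM, counts scaled to a library total of 1000000.

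A miRNA is cut from one arm of a hairpin precursor by Drosha and Dicer and loaded into an Argonaute protein, which it guides to mRNAs. Bases 2 to 8 of the mature miRNA, the seed, pair with sites in the mRNA, so miRNAs with the same seed recognise the same sites and are counted as one family. The arm that is loaded is known as the guide and the other arm is mostly degraded. Many miRNAs are made in one lineage only, such as miR-122 in hepatocytes or miR-1 in muscle, while others are found in nearly every tissue, and both kinds are of use in checking what a culture contains.

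The sequences below are those of the miRNAs that carry the 10 largest seed families among names matched to RefSeq in untreated A549 cells. They are shown because the rest of the description groups the reads by them. They are the mature forms in RefSeq (GRCh38.p14), with the seed in capitals, and each family is given in the order of its members' abundance, starting with the most abundant family.
miR-21-5p: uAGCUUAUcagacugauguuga
let-7i-5p: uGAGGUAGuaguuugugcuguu
let-7f-5p: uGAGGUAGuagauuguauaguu
let-7a-5p: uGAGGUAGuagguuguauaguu
let-7g-5p: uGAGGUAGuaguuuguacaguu
let-7b-5p: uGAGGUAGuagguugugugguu
let-7e-5p: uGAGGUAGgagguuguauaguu
miR-27b-3p: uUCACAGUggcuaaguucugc
miR-27a-3p: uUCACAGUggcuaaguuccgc
miR-100-5p: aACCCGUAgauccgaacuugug
miR-99b-5p: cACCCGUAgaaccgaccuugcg
miR-99a-5p: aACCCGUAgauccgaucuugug
miR-30a-5p: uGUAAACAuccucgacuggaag
miR-30c-5p: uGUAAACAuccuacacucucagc
miR-30e-5p: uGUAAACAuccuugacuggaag
miR-29a-3p: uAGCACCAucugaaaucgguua
miR-29b-3p: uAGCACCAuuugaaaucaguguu
miR-92a-3p: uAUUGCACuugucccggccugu
miR-25-3p: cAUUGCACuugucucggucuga
miR-92b-3p: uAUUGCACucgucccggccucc
miR-32-5p: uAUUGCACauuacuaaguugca
miR-192-5p: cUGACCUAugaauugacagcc
miR-215-5p: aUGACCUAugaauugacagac
miR-24-3p: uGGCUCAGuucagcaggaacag
miR-26a-5p: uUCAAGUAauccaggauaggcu
miR-26b-5p: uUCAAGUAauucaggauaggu

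The totals on mature miRNAs were 2335185 counts in replicate 1 and 2456448 in replicate 2, so that 1 read was worth 0.428 and 0.407 CPM. Of the 2588 mature miRNAs in the table, 931 had a count in replicate 1 and 991 in replicate 2. A count in either library was seen for 1143 of them and in both for 779. The other 1445 names, 55.8% of the table, had 0 counts in both libraries, which allows up to 1.28 CPM in replicate 1 and 1.22 CPM in replicate 2. Of the 364 miRNAs seen in one library only, 333 had at most 3 counts, the number that a count of 0 allows, and the others had at most 9. At least 10 counts in both libraries were reached by 422 miRNAs, which together held 99.9% of the counts. Such limits, like the 95% Wilson intervals given below, take in counting error alone, because amplified reads carry no molecular identifiers here.

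The reads of untreated A549 cells were concentrated in few miRNAs. A single one, miR-21-5p, held 54.3% ± 2.61 of the counts (SD, n = 2 libraries). Summing all rows of each miRNA put it at 49.5%, but such a sum counts a read once for each precursor that lists it. By the row with the highest total, 7 miRNAs held 75% of the counts, 32 held 90%, and 145 held 99%. The number needed for 90% was 30 in replicate 1 and 33 in replicate 2. At least 10000 CPM was reached by 9 miRNAs, at least 1000 CPM by 60, at least 100 CPM by 164, and at least 10 CPM by 349. With miR-21-5p left out of the total, 8 miRNAs were needed for 50% of the remaining counts, 27 for 75%, and 57 for 90%, so the tail behind miR-21-5p was less steep.

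**Figure D1:**
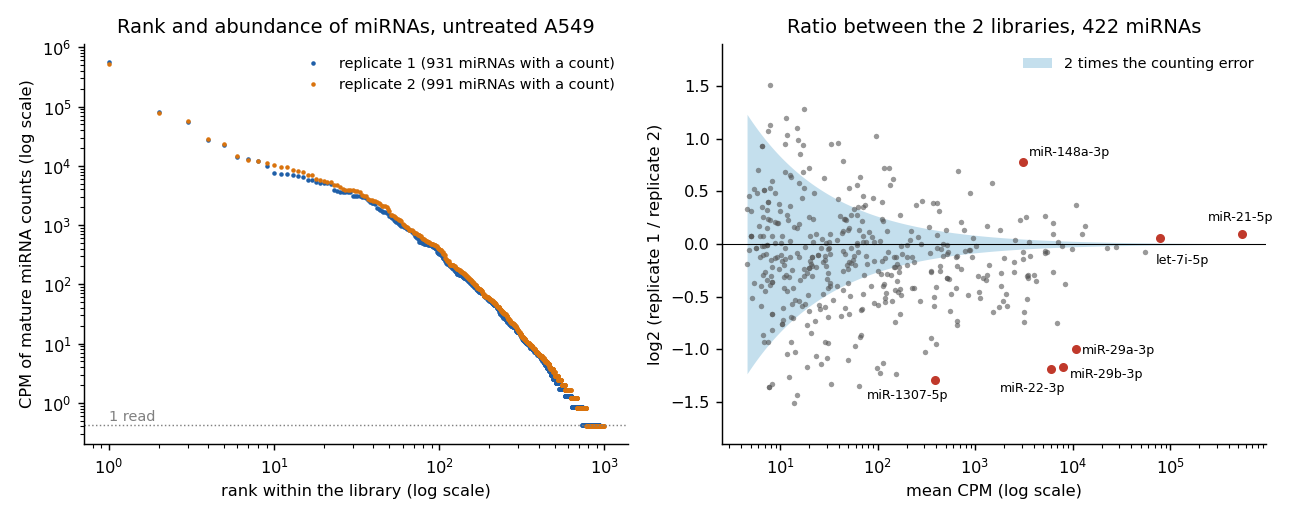
The left plot shows the CPM of each miRNA with a count against its rank, both on log scales, for replicates 1 and 2 (931 and 991 miRNAs). The right plot shows the log2 ratio of replicate 1 to replicate 2 against the mean CPM for the 422 miRNAs with at least 10 counts in both libraries. The shaded band is 2 times the counting error, and miR-29a-3p, miR-29b-3p, miR-22-3p, and miR-1307-5p lie below it while miR-148a-3p lies above it.

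The order of the most abundant miRNAs was the same in both libraries down to rank 5. The first was miR-21-5p, an oncomiR known to repress PDCD4, with 1310012 and 1287484 counts in replicates 1 and 2, or 56.1% and 52.4% of each library. Its precursor gene, MIR21, overlaps an exon of VMP1 (GRCh37, chromosome 17, 57918627 to 57918698, plus strand). The next was let-7i-5p, a member of the family that restrains RAS and HMGA2, with 188097 and 190101 counts (8.05% and 7.74%). Within a library miR-21-5p exceeded let-7i-5p by 6.87 ± 0.136 times (SD, n = 2 libraries). MIRLET7I sits within an intron of MIRLET7IHG (chromosome 12, 62997466 to 62997550, plus strand) and overlaps an exon of another non-coding transcript.

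Rank 3 was held by miR-27b-3p, rank 4 by miR-100-5p, and rank 5 by miR-30a-5p. For miR-27b-3p, known from the repression of PPARG, the counts were 126490 and 139776 (5.42% and 5.69%), and MIR27B is intronic in AOPEP (chromosome 9, 97847727 to 97847823, plus strand). For miR-100-5p, a repressor of MTOR, they were 64368 and 69043 (2.76% and 2.81%), and MIR100 is intronic in MIR100HG (chromosome 11, 122022937 to 122023016, minus strand). For miR-30a-5p, known to repress SNAI1 in epithelial cells, they were 52362 and 56602 (2.24% and 2.30%), and MIR30A is intronic in LINC00472 (chromosome 6, 72113254 to 72113324, minus strand). The SD between the libraries was 0.193 percentage points for the first of these, 0.0384 for miR-100-5p, and 0.0438 for miR-30a-5p, and the ranges of neighbouring ranks did not overlap.

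From rank 6 to 20 the neighbours in the order often overlapped, and the 15 miRNAs held between 1.33% and 0.550% of the counts each. Next came let-7f-5p with 1.41% and 1.25% and let-7a-5p with 1.29% and 1.21%, and their ranges overlapped. Each of them has more than one gene. They were followed by miR-29a-3p, a repressor of collagen genes, with 0.726% in replicate 1 and 1.45% in replicate 2, and by miR-151a-3p, known from the migration of tumour cells, with 1.22% and 0.941%. The range of miR-29a-3p covered those of both miR-151a-3p and miR-192-5p, and its rank was 12 in replicate 1 and 6 in replicate 2. The 10th was miR-192-5p, an miRNA of gut and kidney epithelium that p53 induces, with 22915 and 24952 counts (0.981% and 1.02%).

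Ranks 11 to 20 were, by mean share, miR-24-3p, miR-29b-3p, let-7g-5p, miR-30d-5p, miR-31-5p, miR-92a-3p, miR-10a-5p, miR-26a-5p, miR-22-3p, and miR-182-5p. The more even of these were let-7g-5p (0.768% and 0.780%), miR-30d-5p (0.713% and 0.702%), and miR-182-5p (0.535% and 0.564%). The least even were miR-29b-3p (0.497% and 1.12%), miR-31-5p (0.513% and 0.861%), and miR-22-3p (0.364% and 0.828%), which were all higher in replicate 2. Of the 20 most abundant miRNAs of each library, 18 were shared, and of the 100 most abundant, 94 were shared. The 20 held 85.4% of the counts.

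**Figure D2:**
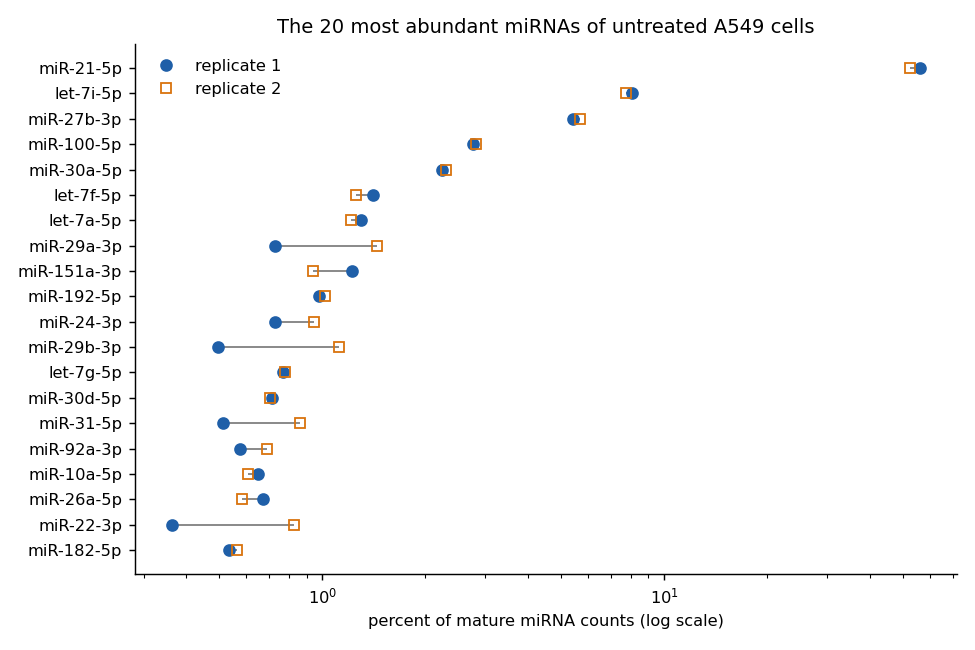
The percent of mature miRNA counts (log scale) is plotted for the 20 most abundant miRNAs, with a filled circle for replicate 1 and an open square for replicate 2, joined by a line. The points of the first 5 miRNAs are close together, while those of miR-29a-3p, miR-29b-3p, miR-31-5p, and miR-22-3p are apart.

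The libraries agreed in rank across miRNAs and differed by more than counting error in single ones. Over the 422 miRNAs with at least 10 counts in both, Spearman's rho between the libraries was 0.975 and Pearson's r of log2 CPM was 0.987. These describe likeness across miRNAs of 2 libraries, and miRNAs are not independent replicates. The SD of the log2 ratio was 0.50 against a counting error of 0.29, leaving 0.41 beyond counting. Below 10 CPM the excess was 0.21 and counting error of 0.51 was most of the spread, whereas among the 60 miRNAs of at least 1000 CPM the excess was 0.37 and the counting error 0.03. Of the 422 ratios, 192 (45.5%) were more than 2 times their own counting error from 0, and 31 were beyond 1 on the log2 scale. On total counts the median ratio was −0.12, with 271 of 422 miRNAs lower in replicate 1. TMM normalization moved all ratios by 0.22, to a median of 0.10 with 170 lower in replicate 1, so which library is higher in general depends on the scaling.

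Among the 164 miRNAs of at least 100 CPM, 7 ratios on total counts were beyond 1 on the log2 scale, all higher in replicate 2. The largest was that of miR-1307-5p, with 529 and 1364 counts, a log2 ratio of −1.29. It was followed by miR-15a-5p, known to repress BCL2, with 214 and 531 counts (−1.24), and miR-378d, with 147 and 362 counts (−1.23). Next were miR-22-3p with 8498 and 20351 counts (−1.19) and miR-29b-3p with 11595 and 27434 counts (−1.17). With TMM each of these 5 is less negative by 0.22 and still below 0. On total counts the ratios highest in replicate 1 were smaller. They were those of miR-148a-3p, a repressor of DNMT1, with 9116 and 5577 counts (0.78), miR-218-5p with 381 and 243 (0.72), miR-335-3p with 338 and 216 (0.72), miR-99a-5p with 1929 and 1254 (0.69), and miR-215-5p with 403 and 277 (0.61). With TMM these 5 are higher by the same 0.22. How many ratios are beyond 1, and in which direction, therefore depends on the scaling. The titles of the runs end in a number that is read here as a date, though no label says so. Both libraries have one such number in common and differ in the other. Since each count column holds both runs, no value within one of these dates can be given.

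The reads were also grouped by seed, which by construction joins miRNAs into fewer and larger groups. RefSeq held a mature sequence for 2283 of the 2588 names, among them 1005 of the 1143 with a count, and these carried 96.9% of the counts. Names that were not matched, among them miR-151a-3p, miR-151a-5p, miR-30d-5p, miR-30b-5p, miR-320a, and miR-21-3p, were placed in no family. The 1005 miRNAs had 845 different seeds, of which 105 were shared by more than 1 miRNA with a count, 265 miRNAs in all. These shared seeds held 89.4% of the counts. Most of that was the seed of miR-21-5p with 54.3%, which is shared only through the 1 and 5 counts of miR-590-5p. The 10 largest families of matched names held 85.5% and 83.3% of the counts in replicates 1 and 2, and 15 seeds were enough for 90% of the matched counts. By mean share, miR-151a-3p alone held 1.08%. That is above the families of miR-192-5p (1.01%), miR-24-3p (0.837%), and miR-26 (0.811%), so the family ranks hold for matched names only.

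The largest family was that of miR-21-5p, and it was almost a single miRNA. The only other matched miRNA with this seed and a count, miR-590-5p from an intron of EIF4H, had 1 and 5 counts. The let-7 and miR-98 family followed with 12.2% ± 0.353 of the counts (SD, n = 2 libraries), and 11 members had a count in at least 1 library. Of these reads, let-7i-5p had 64.7% in each library, let-7f-5p 11.3% and 10.5%, let-7a-5p 10.4% and 10.1%, let-7g-5p 6.16% and 6.52%, let-7b-5p 4.08% and 4.52%, and let-7e-5p 2.10% and 2.13%. The remaining members, miR-98-5p, let-7c-5p, and let-7d-5p, each had under 1%, and miR-4500 and miR-4458 had at most 4 counts in a library. The ratio of let-7i-5p to let-7c-5p was 123 ± 10.4 (SD, n = 2 libraries).

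The let-7 members printed above share all seed bases and differ behind the seed. Counted from the 5′ end with let-7i-5p as the reference, let-7g-5p differs by G17A and U19A, let-7b-5p by U12G, C18U, and U19G, and let-7f-5p by U12A, G17A, C18U, and U19A. The pair let-7f-5p and let-7a-5p carries the same changes apart from the one at the first of these positions, which is U12G in let-7a-5p. Members this alike can exchange reads when a mapper allows mismatches, and the settings of the mapper are not given in the sources used here. The shares within the family are therefore less certain than the family's total.

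The next families were led by one member as well. The miR-27 family held 5.99% and 6.17% of the counts, of which miR-27b-3p had 90.5% and 92.3%, and it differs from miR-27a-3p by U19C alone, counted from the 5′ end. The miR-99 and miR-100 family held 3.35% and 3.39%, with 82.4% and 82.9% of it in miR-100-5p, 15.2% and 15.6% in miR-99b-5p, and 1.98% on average in miR-99a-5p. The miR-30 family, without the members that were not matched, held 2.72% and 2.81%. Of these reads miR-30a-5p had 82.5% and 82.1%, miR-30c-5p 13.3% and 12.7%, and miR-30e-5p 4.21% and 5.16%. Left out were miR-30d-5p, with 0.713% and 0.702% of all counts, and miR-30b-5p, with 0.0455% and 0.0493%. With them the family's total would be higher and the share of miR-30a-5p lower. The family's place behind that of miR-99 and miR-100 therefore holds for matched names only. These 3 families differed little between the libraries in total.

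The miR-29 family, which represses collagens and DNA methyltransferases, was shared by its main members and was the least even of the 10. It held 1.23% of replicate 1 and 2.58% of replicate 2, 2.10 times as much on total counts, while its makeup was alike. TMM lowers the difference between the libraries by 0.22 on the log2 scale. Of its reads miR-29a-3p had 59.1% and 56.1%, miR-29b-3p 40.4% and 43.3%, and miR-29c-3p 0.488% and 0.525%. In both libraries it was above the miR-25 and miR-92 family, which held 1.06% in replicate 1 and 1.25% in replicate 2.

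In the miR-25 and miR-92 family, miR-92a-3p, which has more than one gene, had 54.1% and 55.1% of the reads. The rest was mostly miR-25-3p, from an intron of MCM7, with 33.9% and 35.3%, miR-92b-3p with 7.43% on average, and miR-32-5p with 3.95% and 2.55%. The family of miR-192-5p and miR-215-5p held 0.999% and 1.03% of the counts, with 98.3% and 98.9% of it in miR-192-5p, from which miR-215-5p differs by C1A and C20A, counted from the 5′ end. The seed of miR-24-3p was held by no other matched name with a count and took 0.729% and 0.945%. The family of miR-26, known to repress EZH2, held 0.837% and 0.786%, with 77.3% of it on average in miR-26a-5p and 22.7% in miR-26b-5p.

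**Figure D3:**
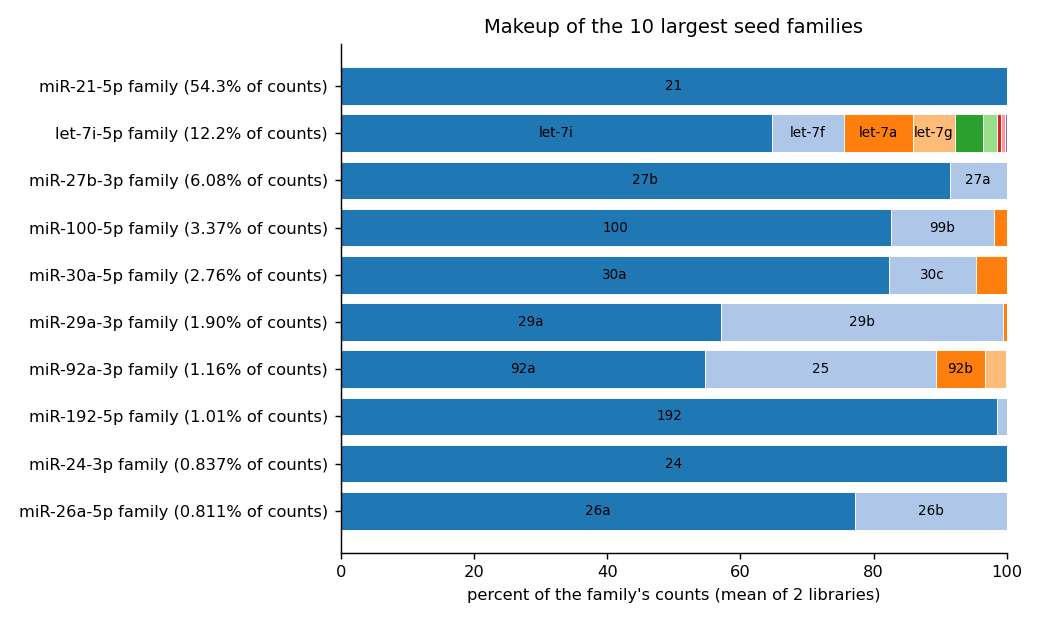
Each bar is one of the 10 largest seed families among matched names. It is divided by the percent of the family's counts that each member holds, as the mean of 2 libraries. The family's share of all counts stands beside its name. Names that were not matched, such as miR-30d-5p, are left out. The leading member holds 64.7% or more in every family except the families led by miR-29a-3p with 57.1% and by miR-92a-3p with 54.6%.

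The most abundant miRNAs shared features of sequence that the choice of libraries did not use. Of the RefSeq mature sequences that were matched, 36.7% begin with U, against 39.9% of those with a count and 41.5% of those with at least 10 counts in both libraries. Weighted by reads, U at the first base made up 89.5% and 87.5% of the matched counts, and 75.1% and 72.7% without miR-21-5p. G at the first base made up 13.6% of the matched names and 0.128% and 0.145% of their counts. The median GC content was 52.2% over all matched names, 54.5% over those at 0 counts, 47.8% over those with at least 10 counts in both libraries, and 42.6% over the matched members of the 20 most abundant. Names with an annotated length of 22 bases held 83.7% of the matched counts and were 527 of the 1005 matched names with a count. Much of that share was miR-21-5p, itself 22 bases long, with 54.3% of all counts. The share without it was not computed.

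Neighbours in one genomic cluster, which can be cut from one transcript, differed widely in how evenly they shared the reads. Precursor genes within 10 kb of each other on one strand of GRCh37 formed 42 clusters among the 635 of 820 precursor genes that GENCODE places. Genes that were not placed are missing, so a cluster can hold more members and reach farther than is given below. No gene of miR-24-3p, which had 17012 and 23203 counts, is listed in the clusters of miR-23 and miR-27. In the cluster of MIR23B and MIR27B on chromosome 9, from 97847490 to 97847823, miR-27b-3p had 15.3 times the reads of miR-23b-3p in replicate 1 and 14.8 times in replicate 2. In that of MIR23A and MIR27A on chromosome 19, from 13947254 to 13947473, miR-27a-3p exceeded miR-23a-3p by 4.43 ± 1.26 times (SD, n = 2 libraries). In the cluster of MIR182, MIR96, and MIR183 on chromosome 7, from 129410223 to 129414854, miR-182-5p exceeded miR-183-5p by 2.22 ± 0.204 times and miR-96-5p by 4.20 ± 0.514 times.

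In the cluster of MIR99B, MIRLET7E, and MIR125A on chromosome 19, from 52195865 to 52196592 within SPACA6, miR-99b-5p had 2.01 ± 0.0966 times the reads of let-7e-5p. In that of MIR25, MIR93, and MIR106B within MCM7, on chromosome 7 from 99691183 to 99691697, miR-25-3p had 2.08 ± 0.252 times those of miR-93-5p. It was farther above the arms of miR-106b, with 8408 and 10842 counts against 2258 and 2278 of miR-106b-3p and 1018 and 1667 of miR-106b-5p. For MIR221 and MIR222 on chromosome X, from 45605585 to 45606530, the ratio of miR-221-3p to miR-222-3p was 1.02 in replicate 1 and 1.19 in replicate 2. Read ratios between different miRNAs also carry differences in ligation and amplification, so they order reads and not molecules.

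Most precursors gave reads from one arm. Arms were paired by name, which gave 838 precursor names with both arms, and 196 of these had at least 20 counts of both arms together in each library. Left out were miRNAs whose other arm carries a gene number, such as miR-24-3p, miR-30c-5p, and miR-125b-5p. The pair of miR-181a lacks miR-181a-2-3p, with 320 and 391 counts. The names miR-365a and miR-365b were counted separately although their 3p arms have the same sequence. The 5p arm held at least 90% of the pair in both libraries in 72 of the 196, and the 3p arm did so in 67, so 139 (70.9%) had a dominant arm. The median share of the smaller arm was 2.19%, and in 25 precursors it had 0 counts in both libraries. The larger arm held 98.5% of all paired counts in replicate 1 and 98.1% in replicate 2. By reads the 5p arms held 85.7% and 83.9%, which fell to 64.8% and 63.5% without the miR-21 precursor.

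The 5p and 3p arms were ahead about equally often, 5p in both libraries in 95 precursors and 3p in both in 96. In the remaining 5 the arm ahead differed between the libraries or was tied in one, and each of these had at most 610 counts in a library. They were miR-33a, miR-193a, miR-324, miR-424, and miR-130b, named after their values were seen. In miR-424, of the miR-15 and miR-16 group, the 5p arm had 37.6% of 603 counts in replicate 1 (95% Wilson interval 33.9% to 41.6%) and 55.9% of 610 in replicate 2 (51.9% to 59.8%). In miR-130b it had 65.1% of 212 counts (58.5% to 71.2%) and 41.8% of 287 (36.3% to 47.6%). The intervals of the libraries did not overlap for either precursor, so arm use varied between the libraries by more than counting error there.

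Among the 68 precursors with at least 1000 counts of both arms in each library, 55 had a dominant arm, 35 of them 5p and 20 of them 3p. The median difference of the 5p share between the libraries was 0.307 percentage points, and 63 of the 68 were within 5 points. The smaller arm had on average at least 25% of the pair in 4 precursors, miR-106b, miR-1307, miR-30e, and miR-361. Their arms are shown with the seed in capitals because in these precursors both arms, with different seeds, were abundant.
miR-106b-5p: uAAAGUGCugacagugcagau
miR-106b-3p: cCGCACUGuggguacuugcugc
miR-1307-5p: uCGACCGGaccucgaccggcu
miR-1307-3p: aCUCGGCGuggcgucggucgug
miR-30e-5p: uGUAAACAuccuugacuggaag
miR-30e-3p: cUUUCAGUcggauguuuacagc
miR-361-5p: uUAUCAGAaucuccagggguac
miR-361-3p: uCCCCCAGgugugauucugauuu

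For miR-106b the 3p arm led, with 2258 and 2278 counts against 1018 and 1667 of the 5p arm that carries the miR-17 seed, so 5p had 31.1% and 42.3% of the pair. For miR-1307 the 5p arm had 529 and 1364 counts and the 3p arm 1107 and 1468, and the 5p share of 32.3% and 48.2% was the largest gap between the libraries among the 68, at 15.8 percentage points. For miR-30e the 5p arm had 70.8% and 75.4% of 3771 and 4715 counts. For miR-361 the 3p arm led, and 5p had 23.6% and 32.0% of 1398 and 1259 counts. The 5p share was higher in replicate 2 in all 4.

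**Figure D4:**
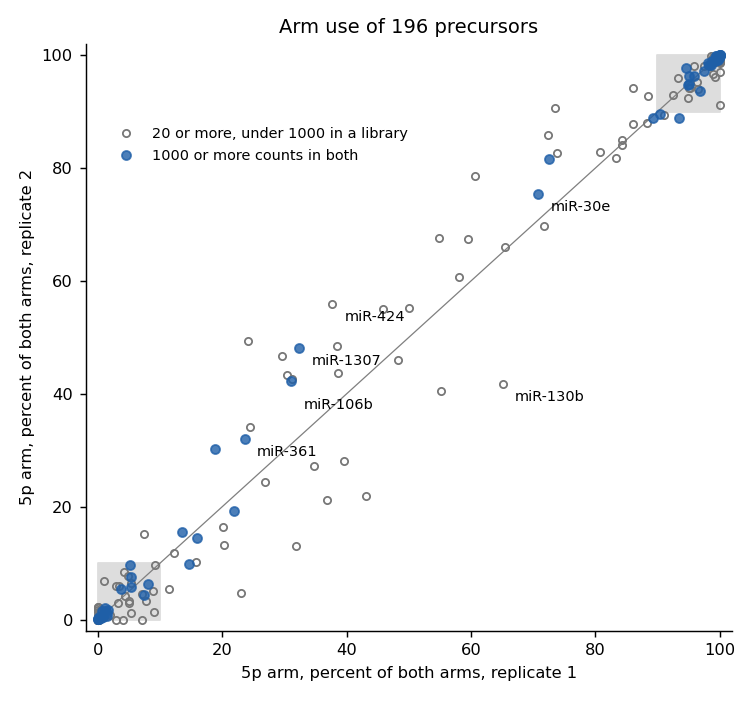
The percent of both arms' counts that lies on the 5p arm is plotted for replicate 1 against replicate 2, for 196 precursors with at least 20 counts in each library; filled points have at least 1000 in both. Points in the grey corners have at least 90% on one arm in both libraries, 72 at the upper right and 67 at the lower left, and the named precursors lie between.

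A smaller arm can still be abundant when its precursor is. Among the 68 precursors, 10 smaller arms were within the 100 most abundant miRNAs. The highest was miR-151a-5p at rank 30, with 6597 and 9977 counts, which is 24.5% of its pair on average. It was followed by miR-30a-3p at rank 40, with 5561 and 6600 counts, and miR-21-3p at rank 42, with 3929 and 6195 counts. The last is 0.389% of the pair, yet at 2102 ± 594 CPM (SD, n = 2 libraries) it was above the guide arms of many precursors. For let-7i the smaller arm let-7i-3p had 168 and 387 counts, 0.146% of the pair.

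Lineage miRNAs were examined in 15 lists with 92 entries. Of these, 40 had 0 counts in both libraries, 56 had at most 3 counts in each, and 23 had at least 10 in both. A level of at least 100 CPM was reached by 11. Of all 2588 mature miRNAs, 1445 (55.8%) had 0 counts in both libraries and 422 had at least 10 in both. Counts of 0 were therefore no more frequent in the lists than among all names. The 3 counts that a 0 allows correspond to 1.28 and 1.22 CPM, so "at 0" below means under these levels.

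The epithelial list was split. All 3 miRNAs of the miR-183 cluster, also known from sensory epithelia, were abundant, with 12497 and 13866 counts of miR-182-5p, 5292 and 6690 of miR-183-5p, and 3259 and 3040 of miR-96-5p, together 9013 and 9606 CPM. The miR-200 family, which keeps ZEB1 and ZEB2 low in epithelia and defines the epithelial state in many lines, was scarce, its 5 guides together at 139 and 162 CPM. The counts were 101 and 150 for miR-200a-3p, 123 and 144 for miR-200b-3p, 61 and 46 for miR-200c-3p, 9 and 13 for miR-141-3p, and 30 and 46 for miR-429. The reads of miR-182-5p alone were 38.6 and 34.8 times those of the 5 guides together. Of the squamous and skin miRNAs, miR-203a-3p had 20 and 20 counts, above miR-141-3p and below the other miR-200 guides, and miR-205-5p had 0 and 2. Set against the epithelial label, 8 of the 10 miRNAs of this list had at least 10 counts in both libraries, and only miR-205-5p was at the floor.

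The guides of both groups are shown with their seeds in capitals, because the contrast between the scarce miR-200 family, listed first, and the abundant miR-183 cluster is the main feature of the epithelial list.
miR-200a-3p: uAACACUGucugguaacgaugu
miR-141-3p: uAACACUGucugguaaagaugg
miR-200b-3p: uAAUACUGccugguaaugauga
miR-200c-3p: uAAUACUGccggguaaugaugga
miR-429: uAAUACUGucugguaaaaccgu
miR-182-5p: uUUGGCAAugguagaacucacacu
miR-96-5p: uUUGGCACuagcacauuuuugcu
miR-183-5p: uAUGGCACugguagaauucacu

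The list of intestine and kidney epithelium, whose miRNAs depend on hepatocyte nuclear factors, was the highest of the 15, at 11275 and 11749 CPM in sum. It was carried by miR-192-5p, with 3012 and 3631 counts of miR-194-5p and 403 and 277 of miR-215-5p behind it. MIR192 overlaps an exon of MIR194-2HG (chromosome 11, 64658609 to 64658718). MIR194-1 is next to MIR215 on chromosome 1 (220291499 to 220291583). However, miR-194-5p has more than one gene, and its reads do not show which gene they came from. The ratio of miR-192-5p to miR-194-5p was 7.24 ± 0.520 (SD, n = 2 libraries).

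Single miRNAs of other lineages were well above the floor, with far fewer counts of most other entries in their lists. The endothelial miR-126-3p, from an intron of EGFL7 on chromosome 9 between 139565054 and 139565138, had 1210 and 1279 counts, 519 ± 1.78 CPM, with 47 and 74 counts of its other arm. Among neural miRNAs, miR-9-5p had 509 and 520 counts, miR-218-5p of SLIT2 and SLIT3 introns 381 and 243, miR-137 93 and 191, miR-9-3p 50 and 61, and miR-129-5p 24 and 31. In contrast, the neuronal miR-124-3p was at 0 in both, and miR-219a-5p of oligodendrocytes had 3 and 4 counts. Of the erythroid list, miR-486-5p had 353 and 445 counts, but miR-451a had 1 and 3, miR-144-3p 0 and 3, and miR-144-5p 0 in both. Of the list of multiciliated cells, the p53-induced miR-34c-5p had 469 and 495 counts, against 5 and 23 of miR-34b-5p, 3 and 15 of miR-449a, and 22 and 20 of miR-449c-5p. The islet miRNA miR-375 had 67 and 91 counts, with at most 6 in any other entry of the pancreas list.

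In the remaining lists the highest mean level was 6.69 CPM, that of miR-143-3p. All 8 miRNAs of pluripotent stem cells, among them miR-302a-3p to miR-302d-3p and miR-367-3p, had 0 counts in both libraries. Of 12 entries from the placental cluster on chromosome 19, 10 were at 0 and the others, miR-516b-5p and miR-517c-3p, had 1 count each. Of 8 entries of the testis cluster on the X chromosome, 7 were at 0 and miR-514a-3p had 1 count. In striated muscle miRNAs, miR-133b, miR-208a-3p, and miR-208b-3p were at 0, miR-1-3p had 3 and 5 counts, and miR-499a-5p had 8 and 10. The leukocyte miRNAs miR-223-3p, miR-223-5p, and miR-150-5p were at 0, and miR-142-3p had 12 and 7 counts.

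For fibroblasts and smooth muscle, miR-143-3p had 17 and 15 counts, miR-199a-3p, which has the same sequence as miR-199b-3p, had 5 and 3, and 7 of the 9 entries had at most 3 counts in each library, with miR-214-3p at 0. The liver miR-122-5p had 15 and 9 counts and miR-122-3p was at 0. Of the eye and pigment cell list, miR-204-5p and miR-211-5p were at 0 and miR-184 had 1 count in each library. Whether these low counts came from the cells was not tested.

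**Figure D5:**
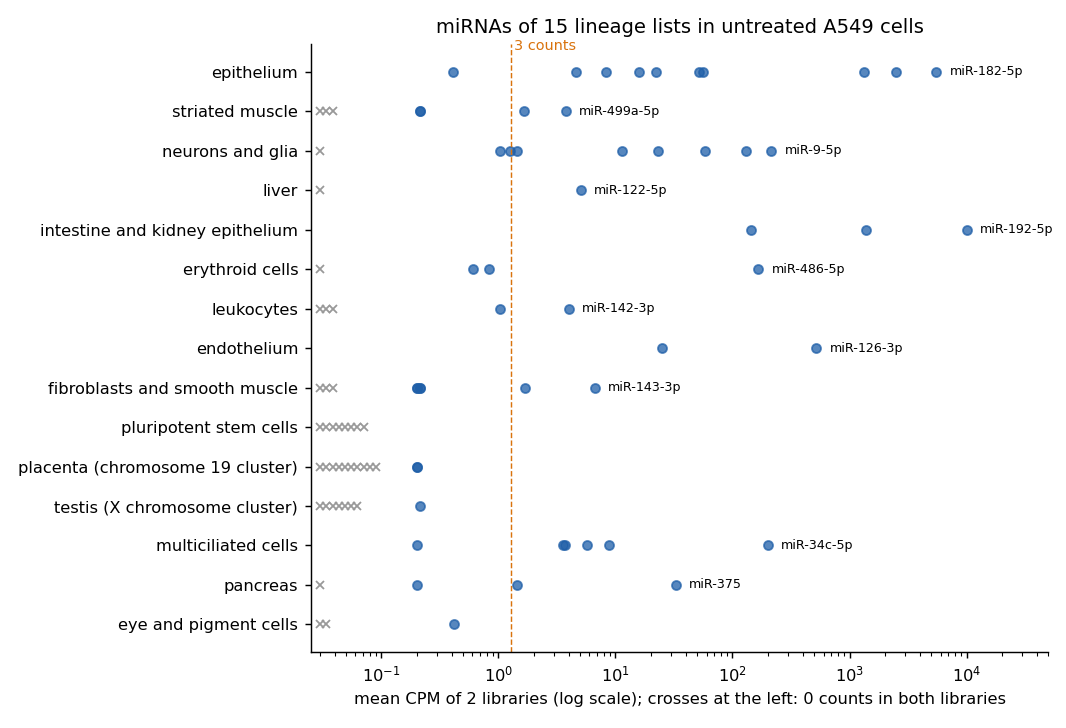
The mean CPM over 2 libraries (log scale) is plotted for the 92 miRNAs of 15 lineage lists, a circle for each miRNA with a count and a grey cross at the left for each at 0 in both libraries; the dashed line marks 3 counts in replicate 1. The circles of miR-192-5p (9985 CPM) and miR-182-5p (5498 CPM) lie farthest to the right, and all entries for pluripotent stem cells are crosses.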

How the data were processed

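Small RNA libraries of A549 cells were prepared by the authors with an Illumina small RNA kit, sequenced on a HiSeq 2000, and counted with miRDeep2; the submitters' processing notes name hg19 and FastQC, and the miRNA reference set and mapper settings are not given in the sources used here. The authors deposited raw counts per mature miRNA and precursor, and a normalized signal, read from its column sums as the CPM of both runs added. Only the 2 untreated columns of each table were used here, and the 4 others were not. For each of the 170 names on several rows the row with the highest total over the 2 libraries was kept. Shares were computed on that total, 2335185 and 2456448 counts, with 95% Wilson intervals. No groups were compared and no test was run. The procedure was tested on simulated data. Named were the 20 most abundant miRNAs, members with at least 1% of the 10 largest families, the lineage lists, precursors of at least 1000 counts with at least 25% on the smaller arm, and the 5 largest and smallest ratios between the libraries of at least 100 CPM; genomic clusters, ratios within a library, abundant smaller arms, and precursors whose leading arm changed were added after their values were seen. The libraries are those of the 0 h label, and the choice to describe them, like the lists and named groups, was made with earlier results of these data known. Tools were Python 3.11.15, pandas 2.3.3, numpy 2.4.6, matplotlib 3.10.9, and edgeR 4.0.16 (TMM factors only). Loci are from GENCODE release 44 mapped to GRCh37, and mature sequences from RefSeq.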

Additional observations from a re-analysis of the deposited data

How the results depend on the processing

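Of 31 recomputed values for 7 results, 25 stayed within the spread between the libraries or, for counts of miRNAs, within 1.5 times. Some of these could not have done otherwise, since with 2 libraries a share from either one lies within the SD, and TMM moves all ratios alike and leaves their SD as it was. Summing the rows of a miRNA counts a read once for each precursor that lists it. The mean share of miR-21-5p over the 2 libraries was then 49.5% rather than 54.3%. That mean is no longer a majority, but it does not show whether each library was below 50%. Without miR-21-5p in the total, the 10 largest families held 67.5% and 57 miRNAs were needed for 90% of the counts. A minimum of 1 count in both libraries instead of 10 left 779 miRNAs, and the SD of the log2 ratio between the libraries was then 0.92. With pairs of at least 1 count, 224 precursors had a dominant arm. Leaving out each library in turn gave 52.4% to 56.1% for miR-21-5p, 83.4% to 85.5% for the 10 largest families, 148 to 156 precursors with a dominant arm, and 45 to 48 lineage miRNAs at 0. With the authors' normalized values the share of miR-21-5p was 54.2%. Depth limits the miRNAs below about 1.28 CPM. No paired analysis was possible because a single group was described and no result comes from a test.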

Other observations

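Among the seed families that follow the 10 largest, those of miR-125, miR-221, and miR-148 were shared between members. In that of miR-125, a relative of the worm lin-4, miR-125a-5p had 8603 and 11537 counts in replicates 1 and 2 and miR-125b-5p had 5763 and 9504, so that miR-125a-5p held 59.9% and 54.8% of the family. The seed of miR-31-5p, in contrast, was held by no other matched miRNA with a count. The family of miR-221-3p and miR-222-3p, known to repress CDKN1B, was split at 50.4% and 54.4% for miR-221-3p. In the family of miR-148a-3p, miR-148b-3p, and miR-152-3p, the leading member differed between the libraries. Replicate 1 had 52.7% miR-148a-3p and 41.7% miR-148b-3p, whereas replicate 2 had 42.2% and 49.1%.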
